A study of Mus musculus with 4 samples.

Results

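Matrix metalloproteinases (MMPs) are the zinc-dependent enzymes that cut collagen, gelatin, elastin and other parts of the matrix around cells. The 10 MMP genes described here were chosen by name, Mmp2, Mmp3, Mmp8, Mmp9, Mmp12, Mmp13, Mmp14, Mmp19, Mmp23 and Mmp25, out of 31053 genes listed in the files, of which 20506 had at least 1 transcript counted. The question asked of them was which class of cell held the transcripts of each enzyme, and on which day. The samples were carotid arteries of male C57BL/6 mice that were 11 weeks old before injury. The left common carotid was injured with a wire, which strips the inner lining of the vessel, and single cells were sequenced from uninjured arteries (day 0) and from arteries taken on days 3, 7 and 14 after injury. No transgene, drug or mutant allele separated the groups. The arteries of several mice were pooled into each library after enzymatic digestion and removal of dead cells.

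Each day was 1 library, so a day and its library cannot be told apart and no comparison between days could be tested. All intervals below are exact 95% intervals for counting error only. Transcripts were counted as unique molecular identifiers (UMIs), a tag that lets each captured molecule be counted once, and levels are given as UMIs per 1000000 UMIs of the same cells (CPM). The libraries held 2672722, 18989081, 27973418 and 13329564 UMIs on days 0, 3, 7 and 14, over 333, 1689, 3001 and 1138 barcodes. Some barcodes occurred in more than one library: days 0 and 3 shared 152, and days 7 and 14 shared 64. In 214 of these the library with fewer UMIs held a shallow copy of the other library's cell (a median of 99.52% and 99.58% of its genes were also found there), and these copies were removed. After filtering, 281, 1407, 2693 and 1031 cells remained, with medians of 7959, 5440, 6317 and 10787 UMIs per cell.

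Cells were clustered without the MMP genes and the other protease genes discussed here, and clusters were named "like" a cell type from marker genes. Fibroblast-like cells numbered 231, 74, 136 and 517 on the 4 days, smooth muscle-like cells 12, 100, 85 and 76, and monocyte/macrophage-like cells 4, 567, 974 and 195. Neutrophil-like cells were found only on day 3 (237 cells) and day 7 (120 cells), and dendritic-like cells on days 3, 7 and 14 (115, 288 and 31 cells). The label "carotid artery" was checked against markers of its layers. The smooth muscle gene Myh11 was detected in 5.34%, 8.32%, 6.83% and 11.6% of cells. Acta2, a contractile gene that other stromal cells can also express, was found in 49.8%, 35.8%, 34.6% and 46.5%. Of the endothelial genes, Pecam1 was found in 19.9%, 9.95%, 15.6% and 9.21%, but Cdh5 in only 1.42%, 1.35%, 3.08% and 1.45%. Endothelial-like cells were 2.14%, 2.84%, 2.04% and 1.75% of cells, so the Pecam1 shares do not give the share of endothelial cells. The fibroblast gene Pdgfra was found in 65.5%, 10.7%, 8.99% and 44.7%, and the leukocyte gene Ptprc in 8.90%, 72.4%, 76.7% and 33.5%. By clusters, 231 of the 281 day 0 cells were fibroblast-like, and leukocyte genes without a source at day 0 could not be compared with that day.

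MMPs are made as inactive proforms. Most are secreted, and some, such as Mmp14, stay anchored in the cell membrane. Their activity in tissue is set by tissue inhibitors of metalloproteinases (TIMPs), by the membrane-anchored inhibitor Reck, and by enzymes that remove the propeptide, among them plasmin and furin. Mmp14 together with Timp2 is the known activator of pro-Mmp2. In arteries, MMPs are known for opening the matrix around smooth muscle cells and fibroblasts, and for the degradation of elastin by macrophages. Transcript counts say nothing of activation or inhibition of the proteins.

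Mmp13, Mmp12 and Mmp3 follow one another in a cluster of MMP genes on mouse chromosome 9. Their proximal promoters are shown because all 3 hold the same short motif, Mmp12 only at its downstream start. Mmp12 transcripts were found in another cell class than those of Mmp3, and which Mmp12 start these cells used was not tested. The sequences are from RefSeq (build GRCm38.p6), on the plus strand, as the 100 bases before the annotated start. Capitals mark a match to TGANTCA, the motif that AP-1 transcription factors are known to bind, which reads as the same pattern on both strands.
Mmp13 (chr9:7272414-7272513): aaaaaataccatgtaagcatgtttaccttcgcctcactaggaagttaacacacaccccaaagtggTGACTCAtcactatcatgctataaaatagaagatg
Mmp12, downstream start (chr9:7347274-7347373): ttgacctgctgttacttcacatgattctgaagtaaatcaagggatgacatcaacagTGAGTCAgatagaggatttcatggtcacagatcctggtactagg
Mmp3 (chr9:7445722-7445821): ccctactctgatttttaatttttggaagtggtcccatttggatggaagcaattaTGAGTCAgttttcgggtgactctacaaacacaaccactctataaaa
The matches lie 35, 44 and 46 bases before the start. Promoter stretches were at hand for 7 of the 10 genes (9 stretches). In the 250 bases before the start the motif was found for these 3 and was not found for Mmp8, Mmp14, Mmp23 or Mmp25, nor at the other start of Mmp12. Of all 32851 promoter stretches, 6.75% held it. A match describes the letters and is not evidence of a bound site.

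Over all libraries together, fibroblast-like cells had the highest level of 5 enzymes (Mmp2, Mmp3, Mmp13, Mmp14 and Mmp23). The others were highest in leukocytes: Mmp12 and Mmp19 in monocyte/macrophage-like cells, Mmp8 and Mmp9 in neutrophil-like cells, and Mmp25 in dendritic-like cells. For Mmp19 this order was that of day 3. Fibroblast-like cells were higher on day 7 (58.7 against 42.7 CPM) and day 14 (33.1 against 15.4 CPM). For 9 of the 10 the lead over the next class was larger than the counting error, with ratios between 2.09 for Mmp19 and 13.4 for Mmp3. It was least certain for Mmp25, at 2.50 (1.10 to 7.02), where the next class had 6 UMIs. For Mmp13 the lead was not larger than the error: 13.6 CPM in fibroblast-like cells stood against 13.0 CPM in monocyte/macrophage-like cells, a ratio of 1.05 (0.872 to 1.27). Free RNA in the droplets gives some UMIs of abundant genes to cells that do not make them, so T cell-like cells, not known as a main source of these enzymes, served as the background.

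**Figure D1:**
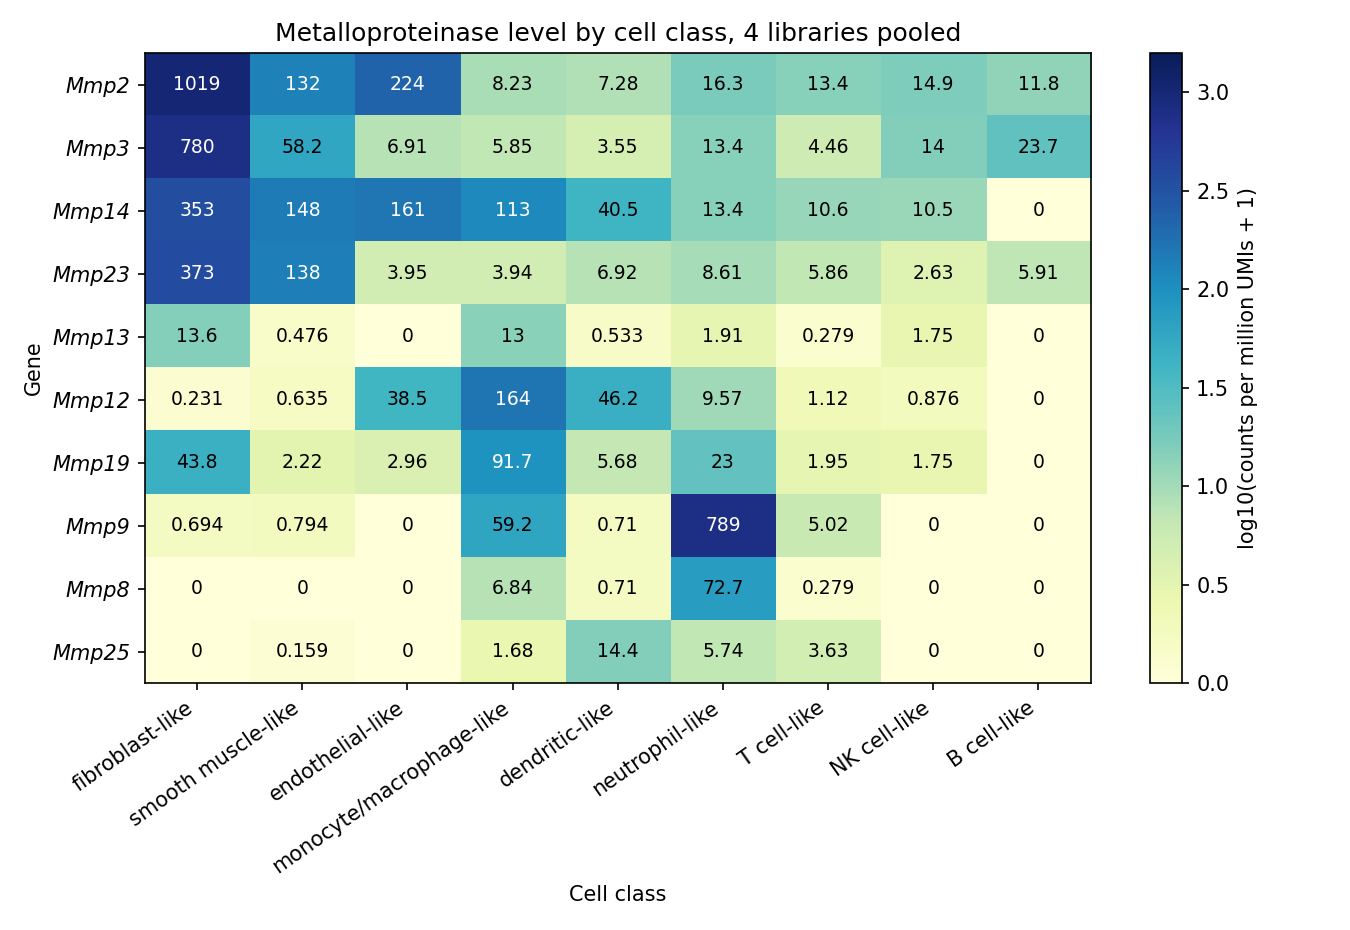
Level of each MMP gene (rows) in each cell class (columns) in CPM, summed over the 4 libraries; the value is printed in each square and the colour is log10 of the level plus 1 CPM. The upper rows are darkest in fibroblast-like cells and the lower rows in leukocyte classes, and Mmp13 has a near tie between 13.6 and 13.0 CPM.

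Level and supply differed. A class can hold most transcripts of a gene because it is abundant, so the share of all UMIs of each gene was computed as well. Fibroblast-like cells, with 28.7% of the UMIs of all genes, held 79.8% of Mmp2, 83.0% of Mmp3, 72.1% of Mmp23 and 54.2% of Mmp14. Neutrophil-like cells held 1.73% of the UMIs of all genes, but 42.5% of Mmp9 and 38.2% of Mmp8. Monocyte/macrophage-like cells, also with 28.7% of all UMIs, held 88.1% of Mmp12, 59.3% of Mmp19 and, through their number, 59.3% of Mmp8. Cells left without a class name held between 13.6% and 16.6% of Mmp2, Mmp3, Mmp14 and Mmp23, more than their 11.1% of all UMIs.

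**Figure D2:**
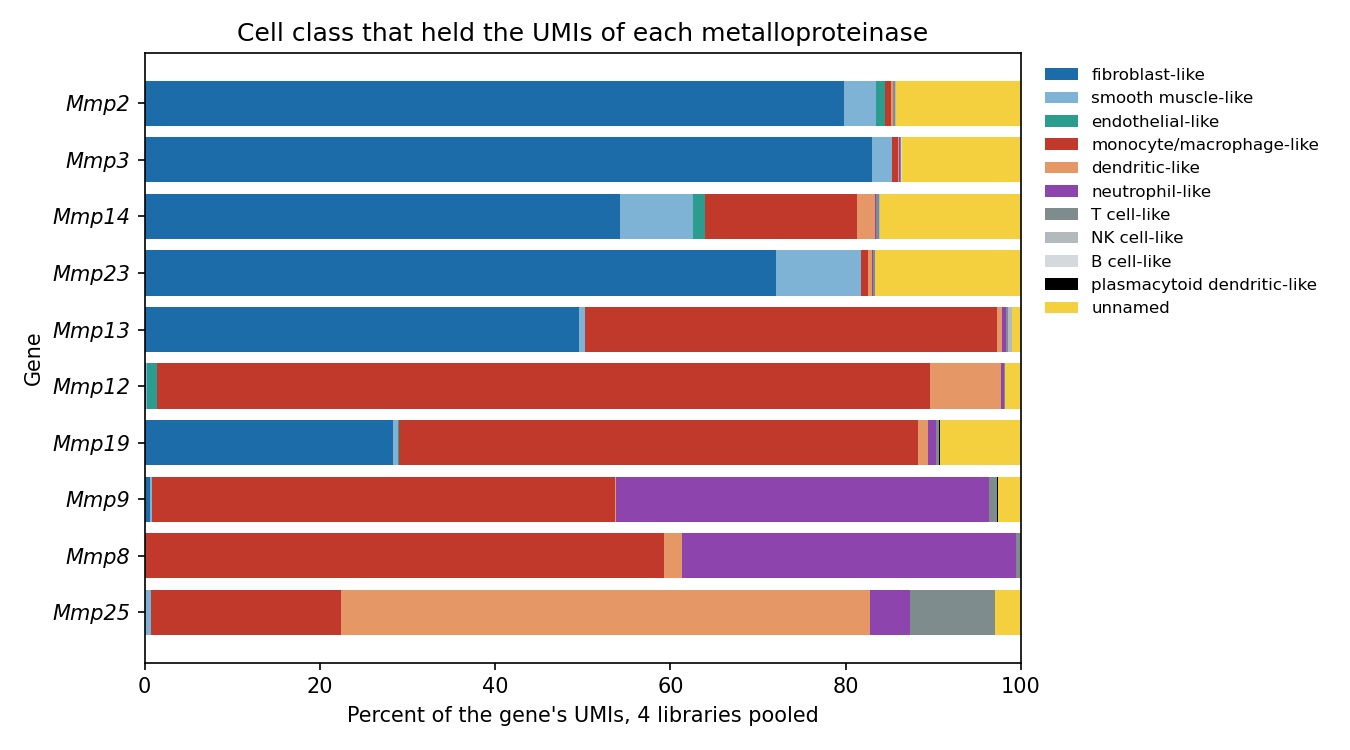
Share of the UMIs of each MMP gene, in percent, that came from each cell class, over all cells of the 4 libraries; each horizontal bar adds to all UMIs of one gene. The share of Mmp9 in monocyte/macrophage-like cells (52.8%) comes almost wholly from 2 cells described in the text.

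Of the gelatinases, Mmp2 (ENSMUSG00000031740) and Mmp9 (ENSMUSG00000017737), which cut denatured collagen and basement membrane collagen, Mmp2 was a gene of fibroblast-like cells. Its 22087 UMIs were spread over 1535 cells, and 223 cells were needed to hold the upper 50% of them. The level in fibroblast-like cells was 547 CPM (517 to 579) on day 0, 669 on day 3, 989.7 on day 7 and 1270 on day 14. The series therefore ran upward across the 4 libraries, with ratios to day 0 of 1.22 (1.14 to 1.31), 1.81 (1.69 to 1.94) and 2.32 (2.19 to 2.47), of which day 14 passed 2-fold. After each cell was thinned to 1000 UMIs, 42.3%, 41.1%, 48.5% and 64.9% of fibroblast-like cells had a Mmp2 UMI, against 0% to 2.06% of T cell-like cells.

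The clusters that made up the fibroblast-like class were not the same on each day, and neither was the depth of its cells, with medians of 8400, 39651, 14707.5 and 18154 UMIs on days 0, 3, 7 and 14. The part of either in the values was not tested. On day 0, 204 of the 231 cells belonged to a cluster led by Rbp4 and 25 to a cluster led by Igfbp5 and Pi16. On day 3, 41 of 74 belonged to a cluster led by Saa3 and Cxcl5, genes of acute inflammation, which had no cell on day 0 or day 14. On day 14, 269 of 517 belonged to a cluster led by C1qtnf3 and Cilp. Within the Rbp4 cluster, the one with at least 10 cells on each day, Mmp2 stood at 611 CPM (575 to 648) on day 0, 1270 on day 3 (21 cells), 1446 on day 7 (14 cells) and 1035 (959 to 1116) on day 14. Within the Igfbp5 cluster it was 274 CPM on day 0 (25 cells) and 1162 on day 14 (47 cells). Mmp2 was thus higher after injury inside these clusters as well.

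Endothelial-like and smooth muscle-like cells came next for Mmp2, at 224 CPM (196 to 255) and 132 CPM (123 to 141) over all libraries, and these intervals do not overlap. This order was that of day 7 (283 against 207 CPM). On days 3 and 14 it was the other way, at 34.8 against 48.9 and 146 against 188 CPM, with 7 endothelial-like UMIs on each day. In endothelial-like cells the level was 34.8 CPM on day 3 (7 UMIs in 40 cells), 283 on day 7 (212 UMIs in 55 cells) and 146 on day 14 (7 UMIs in 18 cells). Day 7 was 8.13-fold (3.88 to 20.5) above day 3. Smooth muscle-like cells had 30.1, 48.9, 207 and 188 CPM on days 0, 3, 7 and 14, with only 12 cells on day 0, and day 7 was 4.23-fold (3.48 to 5.17) above day 3. The smooth muscle-like class of day 7 included 13 deep cells (a median of 63327 UMIs) of clusters led by cell cycle genes, which were placed in the class by their neighbours and held 44.2% of its UMIs on that day. The class had 0 such cells on the other days. Without them Mmp2 on day 7 was 163 CPM, or 3.32-fold (2.65 to 4.17) day 3. In monocyte/macrophage-like cells Mmp2 was 3.95, 10.5 and 10.0 CPM on days 3, 7 and 14, no higher than the 5.26, 13.5 and 21.4 CPM of T cell-like cells, and was read as background.

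Mmp9 was a neutrophil gene in these libraries, with one exception. Neutrophil-like cells had 1001 CPM (926 to 1079) on day 3 from 674 UMIs and 404 CPM (342 to 474) on day 7 from 150 UMIs, a ratio of 0.404 (0.336 to 0.483). On day 3, 74.3% of these cells had a Mmp9 UMI, and on day 7, 56.7%. With every cell thinned to 1000 UMIs the shares were 52.9% (46.1 to 59.6) and 34.3% (25.4 to 44.0), while T cell-like cells of the same libraries had 0% and 0.773%. Mmp9 was listed at 0 UMIs in the 231 fibroblast-like cells of day 0, which allows up to 1.66 CPM by the exact interval (3 UMIs are 1.35 CPM).

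The exception was a pair of cells of day 7, which held 708 and 280 Mmp9 UMIs, together 51.0% of the 1937 in all cells. They fell in a monocyte/macrophage-like cluster led by Acp5, a lead that includes their own Acp5 UMIs. Genes read in them after their Mmp9 values were seen included Ctsk, the collagen-cutting cathepsin of osteoclasts (1478 and 802 UMIs), Acp5, the tartrate-resistant acid phosphatase (727 and 573), and the osteoclast regulators Nfatc1 (45 and 33) and Oscar (16 and 12). Calcr, the calcitonin receptor that mature osteoclasts carry, was at 0 UMIs in both. The macrophage lysozyme gene Lyz2 was at 0 in both, and Csf1r was present (40 and 37 UMIs). The cells were deep, at 64618 and 49636 UMIs, and their doublet scores were both 0.0575. The other 972 monocyte/macrophage-like cells of day 7 had 13 Mmp9 UMIs in 8 cells, or 1.32 CPM (0.705 to 2.27). Without the pair, neutrophil-like cells held 86.8% of the remaining Mmp9 UMIs and monocyte/macrophage-like cells 3.58%.

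Mmp3 (ENSMUSG00000043613), the stromelysin that cuts proteoglycans and activates other proMMPs, was likewise a fibroblast-like gene, at 780.2 CPM over all libraries against 58.2 CPM in smooth muscle-like cells, 13.4-fold less. Its 16245 UMIs were far less evenly spread than those of Mmp2. They came from 668 cells, and 19 cells held the upper 50%. By day, fibroblast-like cells had 620.0 CPM (588 to 654) from 1374 UMIs on day 0, 1791 from 5656 on day 3, 639 from 1915 on day 7 and 509.6 from 4545 on day 14. Day 3 stood highest, at 2.89-fold (2.72 to 3.07) day 0, whereas days 7 and 14 were at 1.03-fold and 0.822-fold. Thinned to 1000 UMIs, 17.3%, 34.2%, 7.69% and 18.5% of cells had a Mmp3 UMI.

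The day 3 peak of Mmp3 lay in the Saa3 and Cxcl5 cluster. These cells were deep (a median of 56131 UMIs over 63 cells) and held 5496 of the 5656 fibroblast-like Mmp3 UMIs of day 3, at 2112 CPM. The deepest sources were 2 cells of day 3 with 1691 and 1630 Mmp3 UMIs and 1 cell of day 7 with 1248, all in this cluster. Without the cluster, the remaining 33 fibroblast-like cells of day 3 had 287 CPM (245 to 336), 0.463-fold (0.391 to 0.546) the day 0 level, and day 7 stood at 0.524-fold. Among cells with a class name, the direction of the Mmp3 difference thus depended on this 1 cluster, and the part of its depth in the result was not tested. Another cluster, led by Tnfrsf11b (46 cells, 33 of them of day 3), carried 10 fibroblast markers but was left without a class name. Its cells are not in these values, and its Mmp3 level is given below with the unnamed cells. Within the Rbp4 cluster the values were 732, 201, 1771 and 739 CPM on days 0, 3, 7 and 14, with 204, 21, 14 and 82 cells, so day 3 was lowest and days 0 and 14 were alike within counting error (693 to 773 and 675 to 808). Among the clusters of day 14 with over 40 cells, Mmp3 ranged from 56.0 CPM in the Igfbp5 cluster (47 cells) to 884 CPM in a cluster led by Comp (60 cells).

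Mmp3 in smooth muscle-like cells was low and uneven: 0, 21.2, 124 and 32.2 CPM on days 0, 3, 7 and 14, with 177 of the 267 UMIs of day 7 in 1 cell. Without that cell day 7 was at 43.0 CPM. Day 7 was 5.84-fold (4.38 to 7.90) day 3 by summed UMIs but 0.583-fold as the mean of single-cell CPM, so the direction depended on how cells were weighted. Monocyte/macrophage-like cells, at 5.85 CPM, were near the 4.46 CPM of T cell-like cells.

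**Figure D3:**
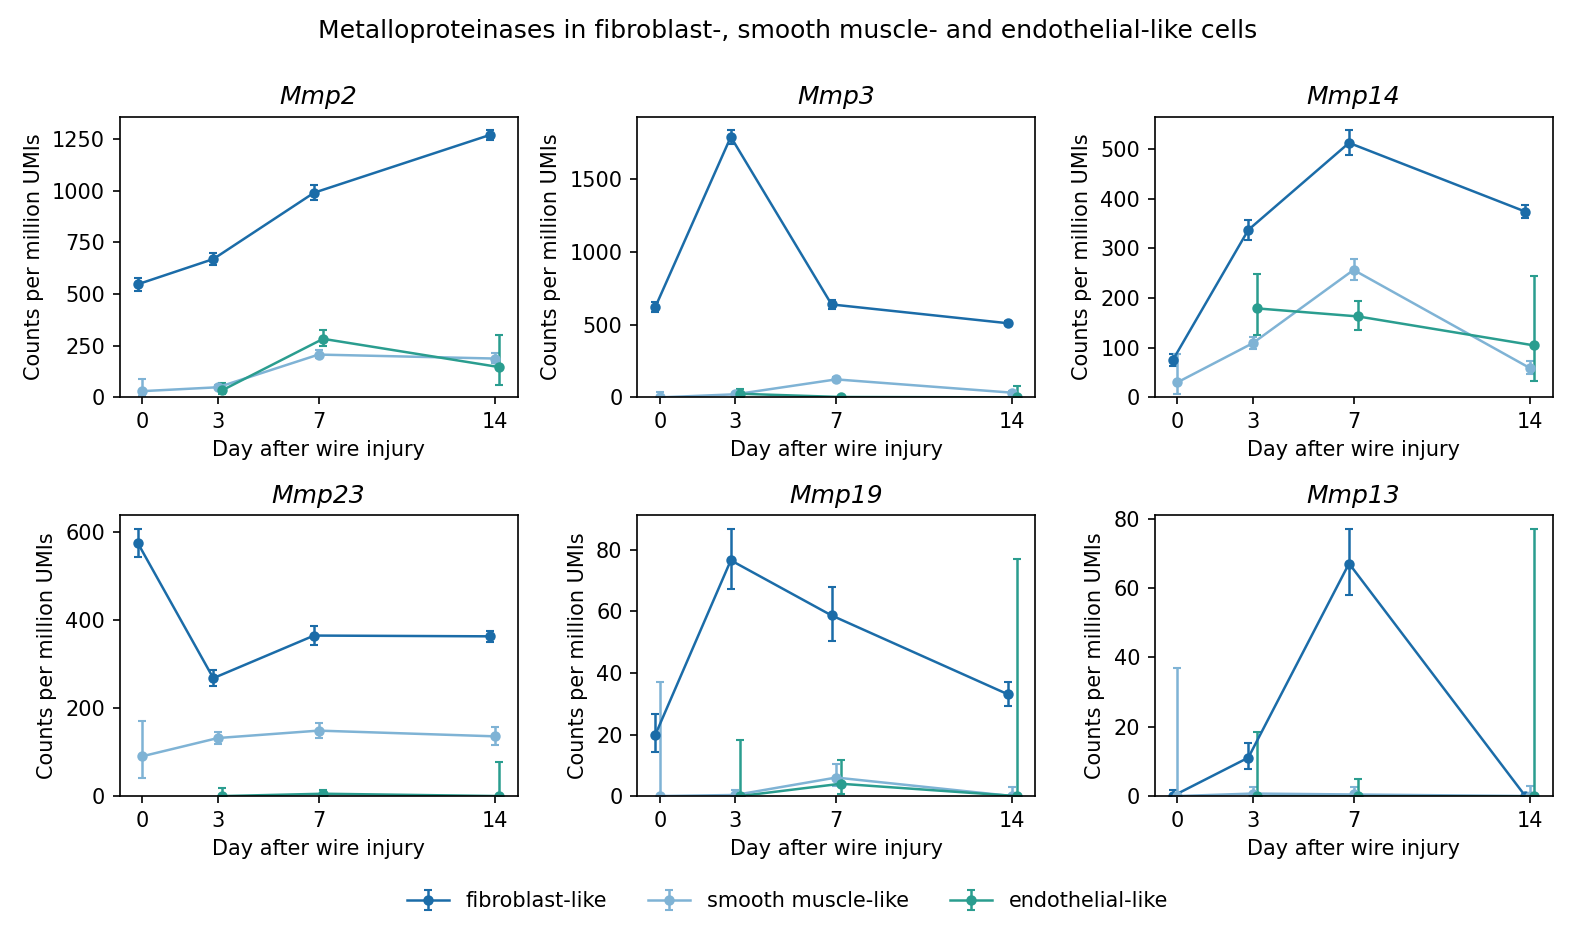
Level of 6 MMP genes (CPM, linear axes with a scale of their own) against day after injury (0 is before injury) in endothelial-like, smooth muscle-like and fibroblast-like cells; points are 1 library each, and bars are exact 95% Poisson intervals for counting error, for classes with at least 10 cells in that library. In fibroblast-like cells Mmp14 lies at 74.9 CPM on day 0 and between 337 and 512 CPM afterwards, and Mmp23 is highest on day 0.

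Of the collagenases, Mmp8 (ENSMUSG00000005800) and Mmp13 (ENSMUSG00000050578), which cut fibrillar collagens, Mmp8 was sparse, with 199 UMIs in 130 cells. It is known as a granule enzyme of neutrophils whose transcript is mostly made before these cells leave the marrow. Neutrophil-like cells had 81.7 CPM (61.5 to 106) on day 3 and 56.6 CPM on day 7. The ratio was 0.693 (0.398 to 1.16), so a difference was not detectable at this depth. Mmp8 UMIs were found in 11.0% and 12.5% of neutrophil-like cells. Monocyte/macrophage-like cells had 6.84 CPM in all, or 8.77, 6.35 and 2.68 CPM on days 3, 7 and 14. Within that class a cluster led by Plac8 and Osm had 17.0 CPM (69 of the 118 UMIs), and one led by Ms4a7 and C1qa had 0.983 CPM. Endothelial-like, fibroblast-like and smooth muscle-like cells had 0 UMIs on every day, which over all fibroblast-like cells allows up to 0.213 CPM by the exact interval (3 UMIs are 0.174 CPM).

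Mmp13 was a gene of a few cells. Of its 476 UMIs, 201 were in 1 fibroblast-like cell of day 7, the same cell that held 1248 Mmp3 UMIs, and 60 were in 1 monocyte/macrophage-like cell of a cluster led by the interferon genes Rsad2 and Ifit1. Fibroblast-like cells had 0, 35, 201 and 0 UMIs on days 0, 3, 7 and 14, in 6 cells of day 3 and 1 cell of day 7, all in the Saa3 and Cxcl5 cluster. Of the 35 UMIs of day 3, 22 were in 1 cell. The ratio of day 3 to day 0 had an exact lower limit of 6.31, and was 8.18 against a floor of 3 UMIs, which is 1.35 CPM in the day 0 cells. Monocyte/macrophage-like cells had Mmp13 in 57 cells, at 6.36, 15.8 and 18.7 CPM on days 3, 7 and 14. Without the top cell of each class, fibroblast-like cells stood at 2.03 CPM and monocyte/macrophage-like cells stood at 9.51 CPM, so the leading class of Mmp13 was set by 1 cell.

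**Figure D4:**
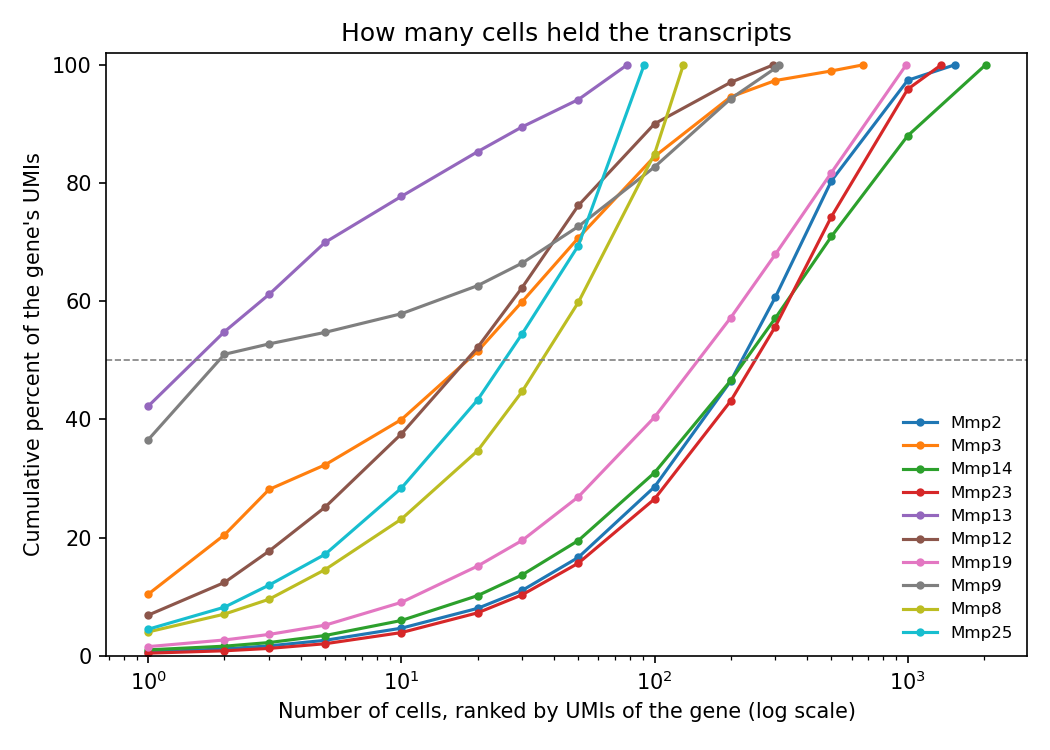
Cumulative share of the UMIs of each MMP gene (percent) against the number of cells, ranked from the cell with the most UMIs of that gene (log10 axis). Mmp9 and Mmp13 reach 50% within 2 cells, Mmp3 and Mmp12 within 19, and Mmp2, Mmp14 and Mmp23 need over 200.

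Mmp12 (ENSMUSG00000049723), the metalloelastase of macrophages, was held by monocyte/macrophage-like cells, at 164 CPM against 46.2 CPM in dendritic-like cells and 0.231 CPM in fibroblast-like cells. Its 3205 UMIs came from 295 cells, with the upper 50% in 19. Monocyte/macrophage-like cells had 81.5 CPM (74.3 to 89.1) on day 3, 218 (208 to 227) on day 7 and 127 (109 to 146) on day 14. Day 7 was 2.67-fold (2.42 to 2.96) above day 3 by summed UMIs. The cells with a Mmp12 UMI were a minority on each day, 9.52%, 13.4% and 9.74%, and after thinning to 1000 UMIs 4.17%, 4.65% and 4.88%. The mean of the single-cell CPM values, in which each cell counts alike, was lower on day 7 than on day 3 (0.762-fold). The summed level and the mean over single cells thus pointed in opposite directions.

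The order of the days also differed between clusters. In a cluster with Pf4 among its leading genes, Mmp12 was 69.9 CPM on day 3 (274 cells) and 789 CPM (731 to 849) on day 7 (56 cells, 15 with a UMI). On day 7, 1 of these cells held 177 Mmp12 UMIs and another held 170. In the cluster led by Mgl2, Mmp12 was 60.7 CPM on day 3 (45 cells) and 599 CPM on day 7 (39 cells), or 272 CPM without the 1 cell that held 220 of its 387 UMIs. In the Plac8 and Osm cluster the order was the other way, 220.3 CPM (180 to 267) on day 3 (61 cells) and 138 CPM (126 to 151) on day 7 (412 cells), and in the Ms4a7 and C1qa cluster it was 125, 79.9 and 122 CPM on days 3, 7 and 14. The class was made up of different clusters on each day: the Pf4 cluster had 274 of 567 cells on day 3, the Plac8 cluster 412 of 974 on day 7, and the Ms4a7 cluster 104 of 195 on day 14. In dendritic-like cells Mmp12 was 30.7, 45.3 and 147 CPM on days 3, 7 and 14, with 25 of the 44 UMIs of day 14 in 1 cell, and without it 66.2 CPM. The 38.5 CPM of endothelial-like cells came from 39 UMIs, of which 36 were in 1 cell of day 14.

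Mmp19 (ENSMUSG00000025355), an MMP known to cut basement membrane proteins, was the early macrophage enzyme of the set. Monocyte/macrophage-like cells had 195 CPM (184 to 207) on day 3 from 1136 UMIs, 42.7 (38.7 to 47.0) on day 7 from 424 and 15.4 (9.76 to 23.1) on day 14 from 23. None of the 3 intervals overlap, and the ratios to day 3 were 0.219 (0.195 to 0.245) and 0.0789 (0.0498 to 0.119). Thinned to 1000 UMIs, 16.3%, 4.65% and 1.22% of the cells had a UMI. The order of days 3 and 7 held inside the Pf4 cluster, with 263 CPM (245 to 283) and 112 (91.3 to 137), and inside the Mgl2 cluster, with 239.6 and 21.7 CPM. In the Plac8 and Osm cluster day 7 was the higher, at 56.4 CPM (48.7 to 64.9) against 37.8 (22.4 to 59.7) on day 3, and these intervals overlap. The Ms4a7 and C1qa cluster was low on each day, at 22.0 CPM (11.4 to 38.4) on day 3, 17.6 on day 7 and 17.9 on day 14. Over all libraries Mmp19 was second highest in fibroblast-like cells. On days 7 and 14, however, they were above monocyte/macrophage-like cells, with intervals that do not overlap. Fibroblast-like cells had 19.9 CPM (14.4 to 26.7), 76.6 (67.3 to 86.9), 58.7 (50.4 to 68.1) and 33.1 (29.4 to 37.1) on days 0, 3, 7 and 14. Day 3 was 3.86-fold (2.79 to 5.45) above day 0. Without the Saa3 and Cxcl5 cluster this was 1.18-fold on day 3 and 2.17-fold on day 7. The day 3 value depended on 3 cell cycle cells, and it was higher without them, as given with the counts below. Neutrophil-like cells had 34.1 CPM on day 3 (23 UMIs) and 2.69 on day 7 (1 UMI), a ratio of 0.0789 (0.00192 to 0.486).

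**Figure D5:**
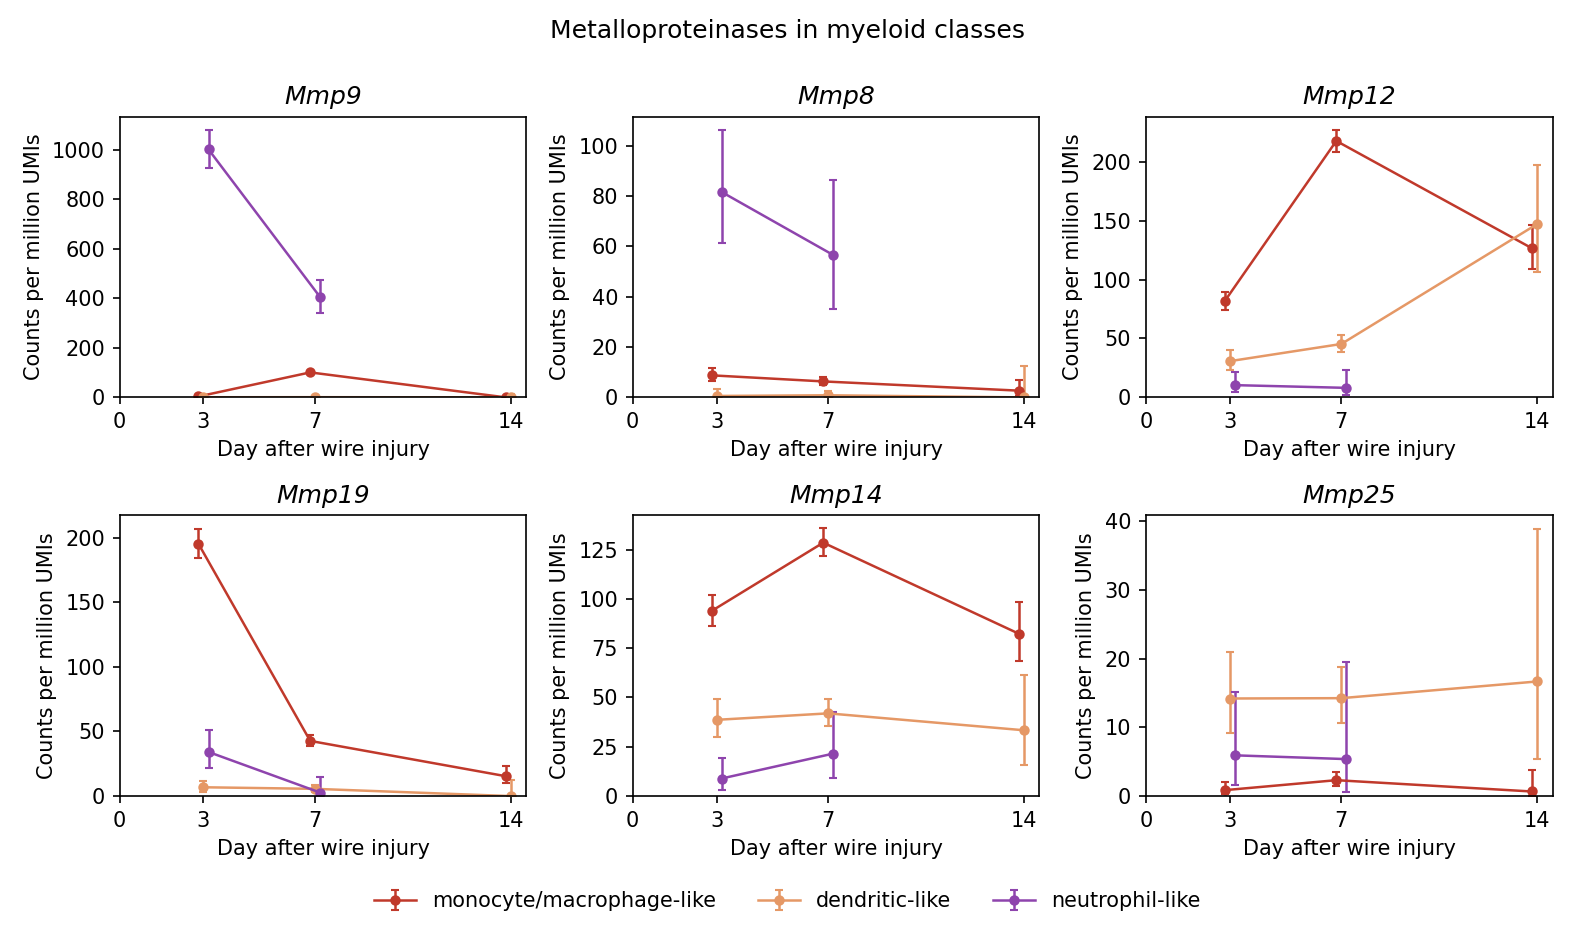
Level of 6 MMP genes (CPM, linear axes with a scale of their own) against day after injury in monocyte/macrophage-like, neutrophil-like and dendritic-like cells; points are 1 library each and bars exact 95% Poisson intervals for counting error. In monocyte/macrophage-like cells Mmp19 goes from 195 to 15.4 CPM between days 3 and 14, and the Mmp9 point of day 7 (101 CPM) is that of 2 cells.

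Of the membrane-bound enzymes, Mmp14 (ENSMUSG00000000957) is a transmembrane collagenase and activator of Mmp2, and Mmp25 (ENSMUSG00000023903) is held in the membrane by a lipid anchor and is known from leukocytes. Mmp14 was the most widely detected of the 10, with UMIs in 2032 cells. Fibroblast-like cells had 74.9 CPM (63.9 to 87.2) on day 0, 337 (317 to 358) on day 3, 512 (487 to 539) on day 7 and 374 (361 to 387) on day 14. Each later day was above day 0 by more than the counting error, at 4.50-fold (3.82 to 5.33) on day 3, 6.84-fold (5.82 to 8.08) on day 7 and 4.99-fold (4.27 to 5.87) on day 14. The thinned shares of cells with a UMI were 6.73%, 30.1%, 38.5% and 27.1%, against at most 0.971% of T cell-like cells. Without the Saa3 and Cxcl5 cluster the ratios were 4.24, 6.60 and 4.99. Within the Rbp4 cluster the level was 69.3 CPM on day 0, 186 on day 3 (21 cells) and 166 on day 14, and in the Igfbp5 cluster 104 CPM on day 0 (25 cells) and 433 on day 14 (47 cells). In the C1qtnf3 cluster, absent on day 0 and day 3, it was 607 CPM on day 7 and 431 on day 14.

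Mmp14 was also found outside fibroblast-like cells. Over all libraries, endothelial-like (161 CPM, 137 to 188) and smooth muscle-like cells (148 CPM, 139 to 158) did not differ beyond counting error. The 119 endothelial-like cells had a median of only 1223 UMIs, and stood at 151 CPM without their top cell. Both classes were above monocyte/macrophage-like cells (113 CPM, 108 to 118) in these sums. By day, smooth muscle-like cells were above that class on days 3 and 7 but below it on day 14 (59.0 against 82.4 CPM). Smooth muscle-like cells had 30.1 CPM on day 0 (3 UMIs in 12 cells), 109 on day 3, 257 on day 7 and 59.0 on day 14, so the day 7 level was 2.35-fold (2.04 to 2.71) that of day 3. Without the 13 cell cycle cells of day 7 it was 135 CPM, or 1.24-fold (1.02 to 1.504), and the class as a whole stood at 101 CPM (93.01 to 110), no longer above monocyte/macrophage-like cells. Monocyte/macrophage-like cells had 93.8, 129 and 82.4 CPM on days 3, 7 and 14, and the intervals of days 3 and 14 overlap. In neutrophil-like cells it was 13.4 CPM (7.33 to 22.5), which overlaps the 10.6 CPM (7.50 to 14.5) of T cell-like cells.

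Mmp25 had 134 UMIs in 91 cells, of which 81 UMIs were in dendritic-like cells. These had 14.2 CPM (9.20 to 21.0) on day 3, 14.3 (10.6 to 18.8) on day 7 and 16.7 (5.42 to 39.0) on day 14, with no difference beyond counting error. Inside the class, 62 of the 81 UMIs were in 1 cluster led by Ccr7, Ccl22 and Fscn1, genes of migratory dendritic cells, at 68.7 CPM, with a UMI in 34 of 89 cells. The same cluster had 86.4 CPM of Mmp14, above the 40.5 CPM of all dendritic-like cells. Neutrophil-like cells, a known site of Mmp25, had 6 UMIs and 5.74 CPM (2.11 to 12.5), an interval that covers the 3.63 CPM of T cell-like cells. For Mmp25, however, T cell-like cells stood above fibroblast-like cells, which had 0 UMIs over all libraries (up to 0.213 CPM). Their level is thus no clear measure of free RNA for this gene. Whether the neutrophil-like UMIs were background could not be decided from this overlap.

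Mmp23 (ENSMUSG00000029061), a small MMP with an unusual N-terminal anchor, was the only one of the 10 with its highest fibroblast-like level on day 0. Fibroblast-like cells had 575 CPM (544 to 607) on day 0, 268 (250 to 286) on day 3, 365 (343 to 387) on day 7 and 363 (350 to 376) on day 14. Day 0 was highest, days 7 and 14 did not differ beyond counting error, and day 3 was 0.466-fold (0.427 to 0.509) day 0. Thinned shares were 45.2%, 27.4%, 30.0% and 33.7%. Over the clusters of this class Mmp23 ranged from 286 CPM in the Saa3 and Cxcl5 cluster to 630 CPM in the Rbp4 cluster, which held 204 of the 231 cells of day 0. Within the Rbp4 cluster day 0 was not highest: the level was 617 CPM (581 to 655) on day 0, 453 (347 to 582) on day 3, 975 (805 to 1172) on day 7 and 639 (580 to 703) on day 14, and days 0 and 14 overlap. Smooth muscle-like cells had 90.4, 132, 149 and 136 CPM on days 0, 3, 7 and 14, with overlapping intervals on days 3, 7 and 14, and endothelial-like cells had 3.95 CPM, no more than T cell-like cells (5.86 CPM). Mmp23 thus had its main levels in fibroblast-like and smooth muscle-like cells.

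Counted together against a difference of at least 2-fold, with at least 20 UMIs over both days, the genes measured in fibroblast-like cells were 6 on day 3, of which 4 were higher than on day 0 (Mmp3, Mmp13, Mmp14 and Mmp19) and 1 was lower (Mmp23). Over all 10452 genes tested the same way 9.31% were higher and 12.1% lower. The median log2 ratio of the 6 was 1.74, and that of all genes -0.12, where a count of 0 was set to 3 UMIs. On day 7, 3 of 6 were higher (Mmp13, Mmp14 and Mmp19; 11.0% of all genes) and 0 lower (7.88%), where Mmp13 rested on 1 cell. On day 14, 2 of 5 were higher (Mmp2 and Mmp14; 9.51%) and 0 lower (4.62%). Without the Saa3 and Cxcl5 cluster the counts of day 3 became 1 higher (Mmp14) and 2 lower (Mmp3 and Mmp23), and those of day 7 became 2 higher (Mmp14 and Mmp19) and 0 lower. With 3 cell cycle cells left out as well, day 3 had Mmp3 at 0.621-fold (0.509 to 0.752), Mmp23 at 0.594-fold (0.481 to 0.727) and Mmp19 at 2.02-fold (0.973 to 3.90), so neither lower call passed 2-fold. In monocyte/macrophage-like cells 5 of 10 were higher on day 7 than on day 3 (5.74% of all genes) and 1 was lower (Mmp19; 3.99%). Of the 5, Mmp2 was at background and Mmp9 rested on 2 cells, which leaves Mmp12, which turned in the mean over single cells, Mmp13, which was 2.49-fold by sums and 1.47-fold in that mean, with 20 of 37 UMIs of day 3 and 60 of 157 of day 7 in 1 cell each, and the sparse Mmp25 (23 against 5 UMIs, and 1.76-fold, 0.535 to 7.50, without cells of cell cycle clusters). Against day 3, day 14 had 2 higher (Mmp2 and Mmp13; 6.16%) and 3 lower (Mmp8, Mmp9 and Mmp19; 9.24%) of 9. Of these, Mmp2 was at background, Mmp13 was 2.95-fold by sums and 1.59-fold as the mean over single cells, and Mmp8, with 4 UMIs on day 14, was 0.306-fold and 1.08-fold. Against day 7, day 14 had 0 higher (4.55%) and 4 lower of 10 (Mmp8, Mmp9, Mmp19 and Mmp25; 6.84%). Of these 4, Mmp9 rested on the 2 cells of day 7, and the intervals of Mmp8 (0.422, 0.112 to 1.14) and Mmp25 (0.289, 0.00702 to 1.78) include 1, which leaves Mmp19. In neutrophil-like cells 2 of 3 were lower on day 7 than on day 3 (Mmp9 and Mmp19; 5.81% of all genes) and 0 higher (6.95%). In fibroblast-like cells, day 14 against day 7 had 0 of 6 higher (5.71%) and 1 lower (Mmp13, from the 201 UMIs of 1 cell of day 7; 4.95%).

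Smooth muscle-like cells gave 4 measured genes. On day 3 against the 12 cells of day 0, 2 were higher (Mmp3 and Mmp14) and 0 lower, where 25.8% of all genes were higher and 15.1% lower. For Mmp3 this was 58 against 0 UMIs, with a lower limit of the ratio of 0.554, so a difference was not detectable at the depth of day 0. Mmp14 was 3.62-fold (1.23 to 17.7). On day 7 against day 3, 3 were higher (Mmp2, Mmp3 and Mmp14; 6.45%) and 0 lower (3.11%), with a median log2 ratio of 1.66 against 0.07 over all genes. Day 14 had 1 higher than day 3 (Mmp2; 5.88%) and 0 lower (9.68%), and against day 7 it had 0 higher (5.9%) and 2 lower (Mmp3 and Mmp14; 13.1%). The Mmp3 call of day 7 rested largely on 1 cell and turned in the mean over single cells, and Mmp14 was not past 2-fold against day 3 without the 13 cell cycle cells, which leaves Mmp2. Dendritic-like cells had 2 of 6 higher on day 7 than on day 3 (Mmp2 and Mmp23; 4.5%) and 0 lower (2.94%), both at levels whose intervals overlap those of T cell-like cells of the same days. On day 14 against day 3 they had 1 of 3 higher (Mmp12; 6.28%) and 0 lower (11.9%).

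The inhibitors were measured in the same fibroblast-like cells. Timp1, the injury-inducible TIMP, was at 258 CPM on day 0, 3683 on day 3, 919 on day 7 and 262 on day 14, which is 14.3-fold (13.1 to 15.6), 3.57-fold and 1.02-fold the day 0 level. Without the Saa3 and Cxcl5 cluster the same ratios were 26.8, 1.78 and 1.02. The first of these rested on 3 cells of cell cycle clusters among the remaining 33, and without them the ratios were 7.82, 1.31 and 1.02. Timp3, the matrix-bound TIMP, went the other way, from 2754 CPM on day 0 to 268, 1079 and 833, or 0.0975-fold (0.0906 to 0.105), 0.392-fold and 0.303-fold. Timp2, the partner of Mmp14 and Mmp2, was at 0.292-fold and 0.424-fold on days 3 and 7, and Reck at 0.197-fold, 0.441-fold and 0.441-fold on the 3 days. Timp4 had 67 UMIs on day 0 and 0, 1 and 15 afterwards. Of the 5 inhibitors, 1 was higher and 4 were lower on day 3 and on day 7, and 0 were higher and 3 lower on day 14, with median log2 ratios of -2.34, -1.24 and -1.18 against -0.12, 0.005 and -0.02 over all genes. The shares of all genes past 2-fold were 9.31% higher and 12.1% lower on day 3, 11.0% and 7.88% on day 7, and 9.51% and 4.62% on day 14. Without the Saa3 and Cxcl5 cluster, Timp3 was at 0.3333-fold on day 3 and 0.484-fold on day 7, Timp2 at 0.555-fold and 0.4996-fold, and Reck at 0.305-fold and 0.570-fold. The counts then became 1 higher and 3 lower on day 3, and 0 higher and 3 lower on day 7. With the cell cycle cells left out as well, Timp3 was at 0.537-fold and 0.509-fold, Timp2 at 0.501-fold and 0.512-fold, and the counts were 1 higher and 2 lower on day 3 and 0 higher and 1 lower on day 7. Over all libraries Timp2 (1818 CPM) led in fibroblast-like cells, and Timp4 in smooth muscle-like cells (9.84 CPM). Timp3 was nearly level in both as a sum (1019 and 1002 CPM) but not by day. On day 0 it was 2754 CPM in fibroblast-like and 1265.5 in smooth muscle-like cells. On days 3, 7 and 14 these were 268 and 834, 1079 and 937, and 833 and 1444 CPM. Without the cells of cell cycle clusters the sums were 1036 and 1143 CPM. Reck was also nearly level as a sum (41.4 CPM, 38.4 to 44.6, and 44.8 CPM, 39.7 to 50.3). On days 0 and 3 it was 88.4 against 201 and 17.4 against 47.1 CPM, and on days 7 and 14 the classes were close. Timp1 was at 1055 CPM in smooth muscle-like and 1000.5 CPM in fibroblast-like cells, but at 756 and 814 CPM without the cells of cell cycle clusters (13 and 5 cells), so its order in these classes depended on those cells. By day, Timp1 was higher in smooth muscle-like cells only on day 7 (1755 against 919 CPM).

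Of the genes of the plasminogen system and of proform activation, 9 of 12 were measured in fibroblast-like cells on day 3, with 4 higher and 2 lower (9.31% and 12.1% of all genes). Among the higher were Plaur, the urokinase receptor (8.59-fold), Cd44, a receptor that docks MMPs at the cell surface (7.25-fold), and Furin, the convertase that activates Mmp14 (2.45-fold). Lower were Pcsk6, another convertase (0.0971-fold), and Serpine2, a protease inhibitor (0.276-fold). Serpine2 stood on the other side on days 7 and 14, at 2.37-fold and 2.10-fold. Plau, urokinase itself, was 3.09-fold (1.44 to 7.91) on day 14.

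Related metalloproteinases were read alongside. Of the membrane-bound ADAM proteases, 3 of 7 measured were higher on day 3 and 1 was lower (9.31% and 12.1% of all genes). Adam12 had 0 UMIs on day 0 and 382, 235 and 215 afterwards, with exact lower limits of 72.3-fold, 46.7-fold and 14.4-fold (89.3-fold, 57.9-fold and 17.8-fold against the floor of 3 UMIs), and Adam19 was 14.1-fold, 17.2-fold and 8.85-fold. Adam33 was 0.314-fold on day 3. Of 10 ADAMTS proteases, which cut proteoglycans and procollagen, 5 were higher and 1 was lower on day 3, beside the same shares of all genes. They included the aggrecan-cutting Adamts4 (4.21-fold, 1.87 to 11.1, and 7.35-fold on day 14) and the procollagen-processing Adamts14 (4.56-fold, 1.58 to 18.0), while Adamts8 was at 2 against 21 UMIs. Of the neutrophil granule genes, 1 was measured in fibroblast-like cells: Lcn2, which binds Mmp9 protein, had 4 UMIs on day 0 and 3378 on day 3, a 592-fold difference (231 to 2176), and was at 0.785 CPM on day 14. Lcn2 was among the leading genes of the Saa3 and Cxcl5 cluster.

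In monocyte/macrophage-like cells, of 26 genes of these lists measured, 3 were higher and 3 lower on day 7 than on day 3 (5.74% and 3.99% of all genes). On day 14 against day 3, of 21 measured, 3 were higher and 8 lower (6.16% and 9.24%). Of the inhibitors, Timp3 was 2.93-fold on day 7 and 2.60-fold on day 14 against day 3, at levels of 15.1 and 13.4 CPM against 24.9 and 11.5 CPM (4.63 to 23.7) in T cell-like cells of the same days, and was read as background. Timp1 was 0.0283-fold (0.00769 to 0.0730) on day 14, with 4 against 550 UMIs. Its level of 2.68 CPM (0.730 to 6.86) on day 14 was no higher than the 3.29 CPM of T cell-like cells. Those cells had 15.8 CPM on day 3, against 94.5 CPM in monocyte/macrophage-like cells. Plau was 3.47-fold on day 14. Adam15, Adam8 and Adam9 were 0.437-fold, 0.269-fold and 0.445-fold on day 14, and Itgam, the integrin chain of myeloid cells, was 0.422-fold and 0.304-fold on days 7 and 14. Timp1 and Mmp19 were thus both far below their day 3 level by day 14 in this class.

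Of the other 13 MMP genes looked up, 6 had at least 20 UMIs. Mmp11 and Mmp27 were highest in fibroblast-like cells (18.6 and 6.19 CPM), and Mmp17, a lipid-anchored membrane MMP, in smooth muscle-like cells, at 47.3 CPM against 2.20 CPM in fibroblast-like cells. Mmp16 was level in both (18.3 and 17.5 CPM), and the leading classes of Mmp15 and Mmp28 rested on 3 and 7 UMIs. In fibroblast-like cells Mmp11 was 3.17-fold day 0 on day 7 and 3.78-fold on day 14, and Mmp27 was 0.319-fold on day 3 and 0.370-fold on day 7.

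The genes whose levels followed each MMP most closely over 24 pools of 1 class in 1 library were found by Pearson correlation of log2(CPM + 10) among 12511 genes. These r values are a description, since pools share libraries and differ in depth. Mmp2 went with Mfap5 (0.966), Bmp1 (0.961) and C1qtnf1 (0.959), and Mmp3 with Pdgfra (0.968), Prrx2 (0.961) and Ildr2 (0.956). Mmp23 went with Abcc9 (0.994), Foxp2 (0.989) and Runx1t1 (0.988). Mmp8 and Mmp9 shared Trem3 (0.993 and 0.953) and Rab44 (0.988 and 0.968), next to Slpi for Mmp8 (0.989). Mmp12 went with Aif1 (0.965), Gm47754 and 4930589L23Rik (both 0.962), Mmp14 with Anxa5, P4hb (both 0.919) and Tspan17 (0.916), and Mmp25 with Mreg (0.902), Ffar2 (0.897) and Flt3 (0.889). The lowest r values were those of Mmp19 (Ccl8 0.886, Pdpn 0.818, Ccl7 0.795) and Mmp13 (Cxcl14 0.769, Spink2 0.719, Lrrc15 0.718).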

How the data were processed

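Vessels were digested, and cells were captured with the Chromium 3′ v2 chemistry, 1 library per day. The authors aligned reads and called cells with Cell Ranger (3.0.2 per the file headers, while the methods name an earlier version); the deposited matrices hold whole UMI counts per gene and barcode. The build given in the sources carries a human name, so no coordinates were taken from the files.

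Barcodes with under 200 genes or over 20% mitochondrial UMIs (453 of 6161) were removed. The 102 cells with the highest Scrublet scores (a preset 0.8% per 1000 cells, while its own threshold called 15) and 214 barcode copies were removed as well. These sets shared some barcodes, and 5412 cells were left. Cells were normalised to 10000, and 2000 variable genes without the MMPs and protease lists, 30 components, 15 neighbours and Leiden resolution 1 gave the clusters (scanpy 1.11.5, leidenalg 0.10.2, Python 3.11.15). A cluster was named from at least 3 markers. Cells of clusters led by cell cycle genes took the class of at least 60% of their neighbours. Counts were summed per class and day (in median ratios a count of 0 was set to 3 UMIs), with exact Poisson, Clopper-Pearson and conditional intervals (scipy 1.17.1). With 1 library per day no test of conditions was made. The 2-fold rule and the intervals of ratios were tested on simulated class sums that had no spread between cells. Cell filters, clustering and class naming were not tested in this way. Genes of other lists were named where they passed 2-fold, the farthest first, at most 4 per direction and list. Some genes that met these rules are not reported here. Alternatives covered cell filters, doublets, clustering, thinning, averaging, folds and single cells; some were chosen after seeing the data. Members and lists were chosen with earlier results of these data known. The genes read in the pair of Mmp9-rich cells and the clusters left out or added were chosen after their values were seen.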

Additional observations from a re-analysis of the deposited data

Results flagged for a closer look

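Some day-to-day ratios pointed in opposite directions in different cell classes. These differences between classes were not tested, since each day is 1 library. Mmp9 on day 7 against day 3 was 27.9-fold in monocyte/macrophage-like cells, through 2 cells, and 0.404-fold in neutrophil-like cells. Mmp3 on day 7 against day 3 was 5.84-fold in smooth muscle-like cells, where 177 of 267 UMIs were in 1 cell and the mean of single-cell CPM gave 0.583-fold, but 0.357-fold in fibroblast-like cells and 0.561-fold in monocyte/macrophage-like cells. Mmp12 on day 14 against day 7 was 3.24-fold in dendritic-like cells and 563-fold in endothelial-like cells, the latter from 36 UMIs in 1 cell against 1 UMI, while it was 0.582-fold in monocyte/macrophage-like cells. In dendritic-like cells, 25 of the 44 UMIs of day 14 were in 1 cell, and without the top cell of each day the ratio was 2.28. The monocyte/macrophage-like ratio turned to 1.13 as the mean of single-cell CPM.

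Cells without a class name, which entered no comparison, also held MMP transcripts at levels above those of the unnamed cells of day 0. On days 3, 7 and 14 together Mmp2 was at 479.8 CPM in them, Mmp3 at 337, Mmp14 at 276 and Mmp23 at 226. The 10 unnamed cells of day 0 had 0 UMIs of Mmp2 and Mmp14, 3 of Mmp3 and 1 of Mmp23. Among them were a cluster led by Tnfrsf11b (46 cells) and one led by Eln (44 cells), which carried 10 and 9 fibroblast markers but also a pericyte marker among their leading genes. Their Mmp2 levels were 909 and 736 CPM and their Mmp3 levels 836 and 230 CPM.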

How the results depend on the processing

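No paired analysis was possible because each day has 1 library. Of the recomputed day ratios of members in their leading class, 210 moved by less than their counting error, 62 moved further and 12 turned, counting as turned only ratios whose own interval excluded 1. Mmp3 on day 14 over day 7 in fibroblast-like cells (0.798) turned to 1.08 without doublet removal, at Leiden resolution 0.6 or with copies kept, 1.09 with each library clustered alone, 1.17 as the mean of single-cell CPM, 1.06 with the held-out clusters added, 1.57 without the Saa3 and Cxcl5 cluster and 2.09 without the top cell of each day. Mmp3 on day 3 over day 0 became 0.463 without that cluster. As means of single-cell CPM, Mmp12 in monocyte/macrophage-like cells was 0.762 (day 7 over 3), 0.865 (14 over 3) and 1.13 (14 over 7). Members lower on day 3 in fibroblast-like cells (1) became 0 without doublet removal, with copies kept or at 3-fold, and 2 without the Saa3 cluster, when those higher (4) became 1. At 1.5-fold, 1 member was lower on day 7 and 1 on day 14 (0 at 2-fold), and at 3-fold 1 was higher on day 14 (2 at 2-fold). Protease list genes lower on day 7 (9) became 4 with each library clustered alone and 5 as single-cell means or with held-out clusters added, and those higher on day 3 (14) became 9 without the Saa3 cluster. The most alike gene was the same for 5 of 10 members with 1 CPM added and 3 with Spearman correlation. Mmp13 was led by monocyte/macrophage-like cells under the stricter cell filter, at Leiden resolution 1.6, by mean single-cell CPM, with copies kept and without its 3 top cells, so that 4 members and not 5 were led by fibroblast-like cells. Leaving out the cells of cell cycle clusters changed the leading class of no member, but it did change that of the inhibitors Timp1 and Timp3. The settings for copies, cell cycle cells, the Saa3 cluster (also with cell cycle cells), held-out clusters and the 3 top cells were chosen after seeing the data. The cause of these moves was not tested beyond what each setting leaves out. Depth limits Mmp8, Mmp13 and Mmp25 most, with 199, 476 and 134 UMIs.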
